A study of Rattus norvegicus with 12 samples.

Results

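The Spata genes are a set of spermatogenesis-associated genes that were named one by one for their expression in the testis and that share a name more than an ancestor. Round spermatids, the haploid cells that follow meiosis, are reshaped into sperm by building an acrosome, a tail anchored to the head and a midpiece wrapped in mitochondria. Several Spata proteins belong to these structures. SPATA6 is needed for the connecting piece that joins head and tail, SPATA19 is a protein of sperm mitochondria and SPATA32 is a protein of the acrosome.

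The family was described here in whole testis of male SD rats, in 12 RNA sequencing libraries of 4 groups with 3 libraries each. Control rats were left unrestrained, and food and water were withheld from them too. The 3-day, 14-day and 21-day stress groups went through RS+IS, a daily restraint in the supine position followed by swimming in ice water, for that number of days. No group carried a transgene, an allele or a drug. The labels give an age of 8 weeks for every sample. The study's methods state that age ahead of a feeding period and the stress days, and the age at collection is not given in the sources used here. If all rats began at the same age, stress days and age cannot be told apart in the slope over days or between the stress groups. The study kept controls at each time point, and which of them were sequenced is not given in the sources used here, so the control group was set to day 0 in the fit over days. The study speaks of biological replicates, and neither it nor the labels name the rat behind each library, so p-values measure the spread between these libraries.

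The members were chosen by name: every rat gene beginning with Spata in the study's list of germ cell markers. There were 11 such genes of 578 markers matched, and of 31512 features in all (marker genes and single transcripts). The list marks 10 of them, Spata3, Spata6, Spata7, Spata9, Spata18, Spata19, Spata20, Spata21, Spata25 and Spata32, as spermatid genes. Spata4 was the 1 member listed under spermatocytes, the cells in meiosis. Each member was measured as 1 Ensembl transcript, and all 11 passed the filter on low counts. The rat symbols follow mouse markers through homology, so other rat genes of the same name series are not analysed here.

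Estimated counts per library summed to between 23908048 and 29404590, with a median of 26818109. The lowest count of any member in any library was 954, for Spata25. Over features, the spread between libraries of a group exceeded counting error (chi-square over its degrees of freedom from 9.23 to 33.4). The share of counting error in the spread of single members was not tested. The germ cell genes Stra8, Sycp3, Tnp1 and Tnp2 were all present, with Tnp1, a transition protein gene of spermatids, between 16783 and 24862 TPM. TPM is transcript abundance per effective length in a library scaled to the same total. In tissue that holds many cell types, fewer cells of a type and less RNA per cell cannot be told apart.

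Promoter sequences were read for 3 members because the cAMP response element is the site bound by CREM, an activator of many genes of round spermatids. The letters TGACGT, the core of that element, were searched on both strands in the 250 bases before the start of each gene, in RefSeq promoters of the rat assembly GRCr8. All 11 members had a promoter there, and 3 held the core, against 6.95% of 33469 promoters and 12.9% of the 363 promoters found for the other spermatid markers. The stretches below run 5′ to 3′ along each gene, and capitals mark the core, which reads ACGTCA on the other strand. In Spata7 the core occurs on both strands in overlap and forms the full palindrome.
Spata18: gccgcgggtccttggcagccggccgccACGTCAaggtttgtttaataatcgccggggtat
Spata32: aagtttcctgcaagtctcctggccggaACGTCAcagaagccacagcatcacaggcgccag
Spata7: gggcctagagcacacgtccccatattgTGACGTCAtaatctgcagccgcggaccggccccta

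The Spata18 stretch lies at chr14:34912739-34912798 on the minus strand, with the core starting 67 bases before the gene's start. The Spata32 stretch lies at chr10:88664194-88664253 on the minus strand, with the core starting 82 bases before the start. The Spata7 stretch lies at chr6:123609493-123609554 on the plus strand, with the first core base 94 bases before the start. By change over days these members ranked 1, 3 and 4 of the 11, and Spata3, which does not hold the core in this window, ranked 2. Of the other motifs searched on both strands in the same window, the letters GTTNCC of the X-box bound by RFX factors was held by Spata3, Spata6, Spata20, Spata21 and Spata32, against 39.9% of all promoters. The CCAAT box was held by Spata19 and Spata20, against 34.0%, and the MYB site AACNGTT by 0 of 11 members, against 3.94%. These are matches of letters and were not tested for binding, and a link between any motif and the change over days was not tested. Crem itself differed little over days, with a fitted log2 change of -0.0073 over 21 days (adjusted p = 0.942, edgeR).

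The levels of the family spanned a wide range, and the order of the genes was nearly the same in every group. On the TPM scale, Spata19 was highest in the control group at 2362 ± 147 (SD, n = 3). Spata6 followed at 1064 ± 91.2 and Spata20, which carries a thioredoxin-like domain, at 801 ± 63.5. Spata18, Spata4 and Spata7 formed a middle group at 642 ± 20.9, 612 ± 43.5 and 533 ± 60.2 TPM, in which neighbouring genes overlapped between libraries.

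Spata21, an EF-hand protein gene, stood at 251 ± 22.9 TPM in the control group, and its values overlapped those of Spata3 at 230 ± 25.7. Spata3 in turn overlapped Spata32 at 194 ± 18.7. Spata9 at 131 ± 19.96 and Spata25 at 34.1 ± 4.08 TPM came last, each below its neighbour in every library. Together the 11 transcripts made up between 0.630% of all TPM, in control replicate 1, and 0.771%, in 21-day replicate 2.

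Spata18 changed its place in this order. It encodes MIEAP, a p53-inducible protein of mitochondrial quality control. In the 3-day stress group Spata18 stood at 568 ± 34.3 TPM, below Spata4 at 614 ± 5.87 with no overlap. In the 14-day stress group it was above Spata4 again, at 732 ± 27.4 against 620 ± 13.8 TPM. In the 21-day stress group it reached 811 ± 55.7 TPM, and its libraries overlapped those of Spata20 at 869 ± 30.4. Spata3 also moved past Spata21 by mean in that group, at 287 ± 21.4 against 273 ± 11.7 TPM, though their libraries overlapped.

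**Figure D1:**
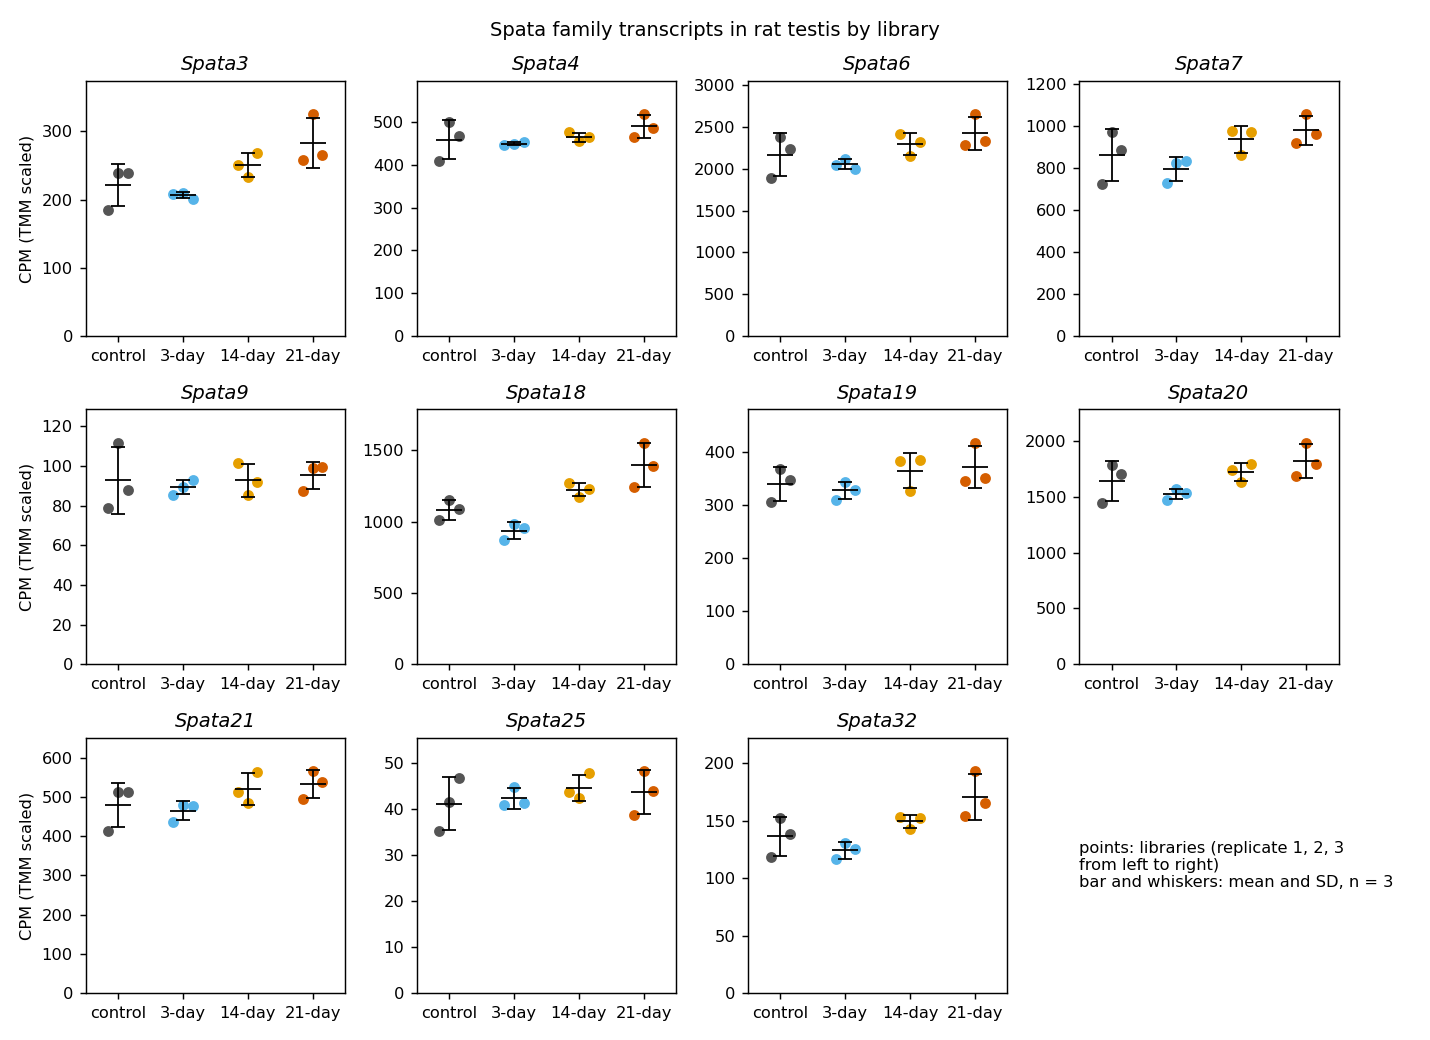
CPM (counts scaled by library size and TMM factor, linear axis from 0) of the 11 Spata transcripts by group, with 1 point per library and the mean ± SD of 3 libraries as bars. Spata18 lies below all control libraries at 3 days and above them at 14 and 21 days, while most other members overlap control throughout.

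The first question was whether the members changed with the length of stress, and it was put to all 12 libraries with the number of stress days (0, 3, 14, 21) as a number. Spata18, Spata3 and Spata32 rose with duration. The other 8 members also had slopes above 0 but did not pass the test. At an unadjusted p under 0.05, 7 members were higher, against 14.4% of all features and 200 of the 375 other spermatid markers. The count of members was 3 without control replicate 1 or without 21-day replicate 2, 4 without 3-day replicate 2 or 3, and 9 without control replicate 2. Without control replicate 2, 6127 of 22454 features were under that level in either direction. With all 12 libraries 3168 of 21992 were higher and 2506 lower. With scaling to the other spermatid markers, 3 members were higher and 1 lower. The fit used edgeR's quasi-likelihood test with Benjamini-Hochberg adjustment over all 21992 features tested, and a feature was called at an adjusted p under 0.05. Of all features 8.39% were called, 1191 higher (5.42%) and 655 lower.

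Spata18, on the CPM scale, stood at 1013, 1153 and 1086 in the control libraries and at 868, 982 and 958 after 3 days. It stood at 1269, 1173 and 1230 after 14 days and at 1245, 1552 and 1385 after 21 days. Every 3-day library was below every control library, and every 14-day and 21-day library was above them. The fitted change was a log2 value of 0.46 ± 0.094 (SE) over 21 days, or 37.5% (adjusted p = 0.0120, edgeR).

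Spata3 stood at 185, 239 and 239 CPM in the control libraries and at 208, 210 and 201 after 3 days. After 14 days it stood at 251, 233 and 268 CPM, and after 21 days at 259, 325 and 265. Its 21-day libraries lay above all control libraries, and its 3-day libraries lay among them. The fitted log2 change over 21 days was 0.41 ± 0.095 (SE), or 32.6% (adjusted p = 0.0218, edgeR).

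Spata32 stood at 118, 152 and 139 CPM in the control libraries and at 117, 131 and 125 after 3 days. It stood at 153, 143 and 153 CPM after 14 days and at 154, 193 and 165 after 21 days. Every 21-day library was above every control library, which did not hold for the 14-day libraries. The fitted log2 change over 21 days was 0.38 ± 0.093 (SE), or 30.2% (adjusted p = 0.0260, edgeR).

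Among the members that did not pass, Spata7, whose protein sits in the transition zone of cilia and is linked to photoreceptor disease, had the highest slope, with a log2 change over 21 days of 0.25 ± 0.091 (SE, adjusted p = 0.105, edgeR). Spata6, Spata20 and Spata21 had log2 changes of 0.20, 0.20 and 0.19, with adjusted p of 0.116, 0.115 and 0.132 in edgeR. Spata19, the most abundant member, had a log2 change of 0.17 (adjusted p = 0.205, edgeR). The fit did not use effective lengths. By mean TPM, the Spata19 ratio to control was 1.01 after 14 days and 1.02 after 21 days, against 1.07 and 1.09 by CPM. The cause of this difference between scales was not tested. The lowest slopes belonged to Spata4 at 0.10, Spata25 at 0.092 and Spata9 at 0.058, with adjusted p of 0.285, 0.553 and 0.737.

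Slopes were above 0 in 11 of 11 members (7 of 11 when libraries were scaled to the other spermatid markers), with a median log2 change of 0.20 over 21 days, against a median of 0.0065 over all features. The other 375 spermatid markers had a median of 0.18, with 344 above 0 and 62 called higher. Among them Tnp1 and Tnp2 had log2 changes of 0.56 and 0.55, above those of all 11 members (adjusted p = 0.0061 and 0.016, edgeR). Stra8, listed under spermatogonia, had -0.72 and Sycp3, listed under spermatocytes, had -0.27 (adjusted p = 0.0040 and 0.013, edgeR). The 180 other spermatocyte markers had a median of -0.055, with 0 called higher and 10 called lower, and Spata4, the member listed among spermatocytes, stood above that median. The 3 of 11 members called higher stood against 5.42% of all features and 62 of 375 other spermatid markers, and this difference was not tested. Without 21-day replicate 2, 1 of 11 was called, against 4.56% of all features higher and 19 of 375 other spermatid markers.

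The calls of Spata3 and Spata32 depended on single libraries, and that of Spata18 did not. On the CPM scale, control replicate 1 was the lowest library of its group for 11 of 11 members. On that scale 21-day replicate 2 was the highest of its group for 10 of 11. By TPM, Spata4, Spata7, Spata9, Spata21 and Spata25 were highest in 21-day replicate 3 instead. The TMM factors of control replicate 1 and 21-day replicate 2, 1.04 and 0.952, were the highest and the lowest of the 12 libraries. The mean log2 CPM of the other spermatid markers moved in the same way, at 6.96 in control replicate 1 and 7.33 in 21-day replicate 2, against 7.18 and 7.11 in the other control libraries and 7.16 and 7.21 in the other 21-day libraries. So did that of the other spermatocyte markers. It was 7.07 in control replicate 1, against 7.25 and 7.18, and 7.19 in 21-day replicate 2, against 7.05 and 7.08.

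Without both libraries, a setting chosen after seeing the data, Spata18 alone was called, with a log2 change of 0.37 over 21 days (adjusted p = 0.0431, edgeR), where 4.11% of all features were called higher. Spata3 then had 0.23 (adjusted p = 0.100) and Spata32 0.23 (adjusted p = 0.118), and the family median was 0.079. Without control replicate 1, without 21-day replicate 2 or without 21-day replicate 3 alone, Spata18 was again the 1 member called. Spata3 and Spata32 had adjusted p between 0.0522 and 0.0737 in these 3 fits. Spata32 also missed the threshold without 3-day replicate 3 (adjusted p = 0.05003), and Spata7 passed it without control replicate 2 (adjusted p = 0.0402).

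**Figure D2:**
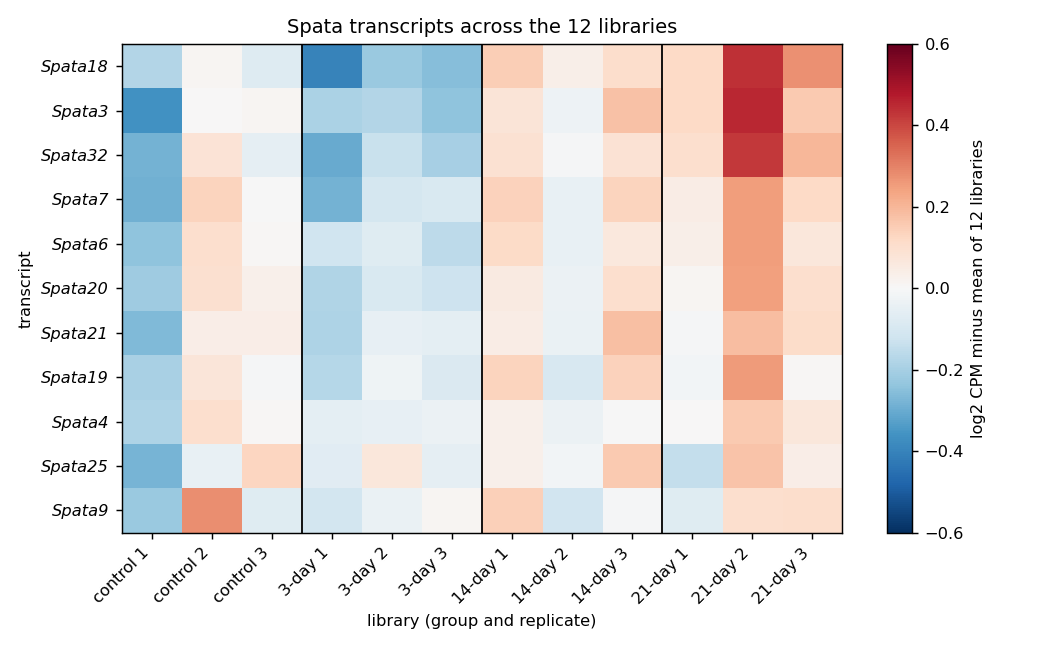
Log2 CPM of each Spata transcript minus its mean over the 12 libraries (colour scale from -0.6 to 0.6), with libraries in columns by group and genes in rows from highest to lowest slope. Control replicate 1 is the lowest library of its group for 11 of 11 members and 21-day replicate 2 the highest of its group for 10 of 11.

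The members were also set against the spermatid markers outside the family, by scaling each library to those 375 genes. This setting was chosen after seeing the data too. It put the median of all features at -0.18 over 21 days, and values are relative to that shift. Spata18 kept a log2 change of 0.27 (adjusted p = 0.00759), Spata3 one of 0.22 (adjusted p = 0.0135) and Spata32 one of 0.20 (adjusted p = 0.0162), by edgeR, so these 3 rose relative to other spermatid markers. On this scale 2.6% of all features and 21 of the 375 other spermatid markers were called higher, beside 3 of 11 members.

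The remaining members lay on both sides of 0 on that scale. Spata7, Spata6, Spata20 and Spata21 stayed above 0, between 0.0045 and 0.067. Spata19, Spata4, Spata25 and Spata9 turned below 0, at -0.022, -0.085, -0.098 and -0.12. The family median was 0.012. Spata18 lay 0.18 below its control mean after 3 days, 0.072 above it after 14 days and 0.21 above it after 21 days in log2 CPM minus that of the other spermatid markers, with SDs of 0.044, 0.034 and 0.074 (n = 3).

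**Figure D3:**
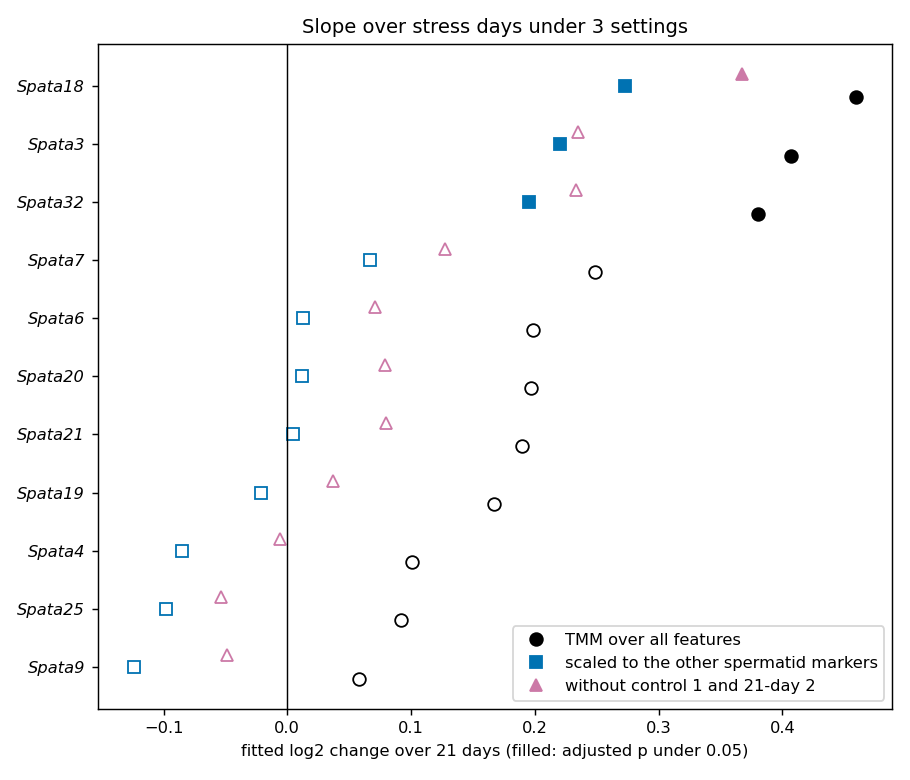
Fitted log2 change over 21 days of each Spata transcript with TMM scaling over all features (circles), with scaling to the other spermatid markers (squares) and without control replicate 1 and 21-day replicate 2 (triangles); filled symbols have an adjusted p under 0.05. Spata18 is filled in all 3 settings, Spata3 and Spata32 in 2, and Spata19, Spata4, Spata25 and Spata9 fall below 0 with scaling to the other spermatid markers.

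The next question was at which duration the members differed from control. No member passed the adjusted threshold in any comparison of a single duration with control by edgeR on the libraries compared. DESeq2 called 0 members after 3 and 14 days and 1, Spata18, after 21 days, where it called 3.08% of the features with an adjusted p higher. In the same edgeR fits 0 of 21076 features were called after 3 days, 0 of 21058 after 14 days and 4 of 21106, or 0.019%, after 21 days. DESeq2 called 39, 341 and 737 features. The edgeR fit of all 12 libraries called 666 after 21 days, Spata18 among them.

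Log2 fold changes after 3 days were below 0 in 10 of 11 members (8 of 11 with scaling to the other spermatid markers), with a median of -0.080, against -0.0086 over all features and -0.040 over the other spermatid markers. Spata18 had the lowest value, -0.21 ± 0.075 (SE, adjusted p = 0.985, edgeR), and was the 1 member with an unadjusted p under 0.05. Of all features 2.01% were lower at that level, as were 11 of the 375 other spermatid markers. The count was 7 members without control replicate 1, and 0 without control replicate 2, control replicate 3, 3-day replicate 1 or 3-day replicate 3. Without control replicate 1, 1474 of 21452 features were under that level in either direction. With all 6 libraries 428 of 21076 were higher and 423 lower. Spata18 was also the 1 member whose 3-day libraries all lay below control, as did 13 of the 375 other spermatid markers and 4.29% of all features. Spata25 was the 1 member above 0, at 0.037.

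After 14 days 10 of 11 members were above 0 (7 of 11 with scaling to the other spermatid markers), with a median log2 fold change of 0.11, against -0.012 over all features and 0.098 over the other spermatid markers. Spata3 had the highest value at 0.18 ± 0.11 (SE, adjusted p = 0.533, edgeR), and Spata18 followed at 0.17 ± 0.069 (adjusted p = 0.399). Spata18 was the 1 member with an unadjusted p under 0.05, where 7.19% of all features and 40 of the 375 other spermatid markers were higher. The count of members was 2 without control replicate 2 and 0 without control replicate 3 or any single 14-day library. Without control replicate 2, 3441 of 21544 features were under that level in either direction. The 14-day libraries of Spata18 lay above all control libraries, as did those of 55 of the 375 other spermatid markers and 11% of all features. Spata9 had the lowest value, -0.0040, and its sign changed with scaling to the total count.

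After 21 days 11 of 11 members were above 0 (5 of 11 with scaling to the other spermatid markers), with a median log2 fold change of 0.15, which was -0.0088 without control replicate 1 and 21-day replicate 2. The median over all features was -0.0031 and that of the other spermatid markers 0.14. Spata18 had a value of 0.36 ± 0.10 (SE, adjusted p = 0.224, edgeR), or 0.35 with an adjusted p of 0.0175 in DESeq2 and 0.36 with 0.0441 in a single edgeR fit of all 12 libraries, where 2.26% of all features were called higher. Spata3 had 0.35 ± 0.13 (adjusted p = 0.313, edgeR) and Spata32 0.32 ± 0.12 (adjusted p = 0.313, edgeR).

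These 3 members were the ones with an unadjusted p under 0.05, where 8.46% of all features were higher, and the ones whose 21-day libraries all lay above control, as did those of 80 of the 375 other spermatid markers and 12.5% of all features. At that unadjusted level 51 of the 375 other spermatid markers were higher. The count of members at that level was 1 without control replicate 1, 21-day replicate 2 or 21-day replicate 3. In those fits 2733, 2912 and 1946 features were under that level in either direction. The other 8 members ranged from 0.031 for Spata9 to 0.18 for Spata7 with 95% intervals that held 0. The interval of Spata19, the most abundant member, ran from -0.13 to 0.37.

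With the 14-day and 21-day libraries joined and set against control, 0 members were called by edgeR, where 1.73% of all features (375) were, and 2 had an unadjusted p under 0.05. The count over all features ranged from 4, without control replicate 3, to 547, without control replicate 2, with each library left out in turn, and 0 members were called in each. The 2 members became 1 without control replicate 1, 14-day replicate 3 or 21-day replicate 3. They became 4 without control replicate 2, where 4792 of 22090 features were under that level in either direction. The median log2 fold change was 0.11 with 11 of 11 above 0, of which 6 turned below 0 with scaling to the other spermatid markers. DESeq2 called 1 member, Spata18, with 0.26 (adjusted p = 0.0420) against 0.26 (adjusted p = 0.135) in edgeR. DESeq2 called 5.33% of the features with an adjusted p higher there. At an unadjusted p under 0.05 in edgeR, 11.1% of all features and 80 of the 375 other spermatid markers were higher.

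**Figure D4:**
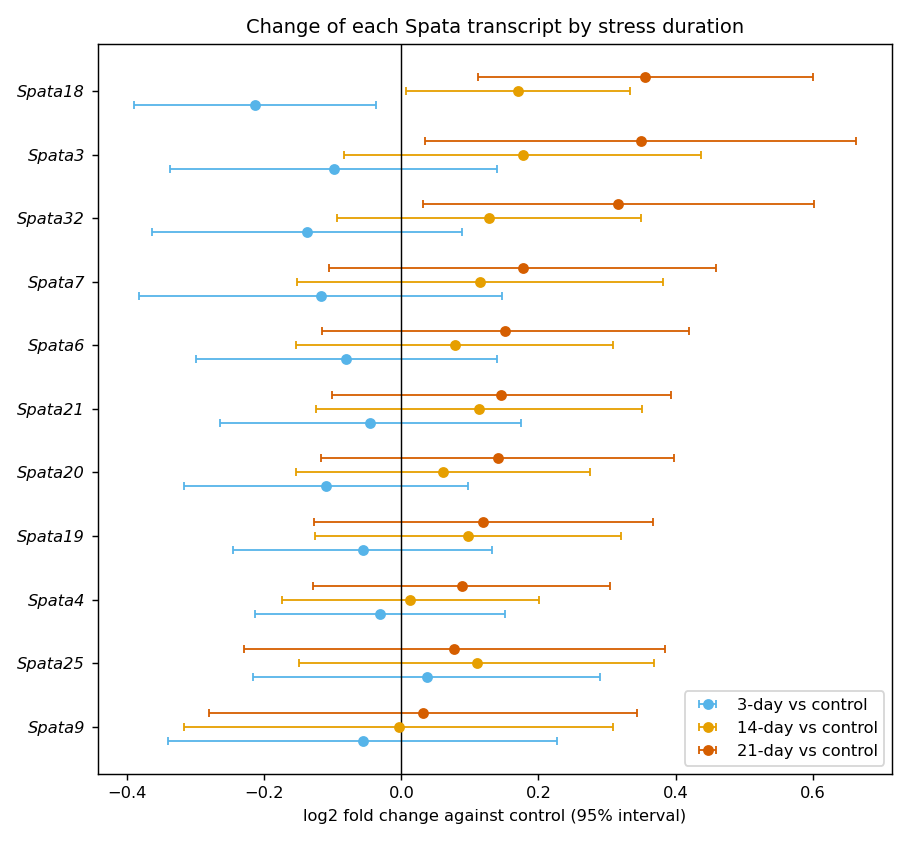
Log2 fold change of each Spata transcript against control after 3, 14 and 21 days, with 95% intervals from edgeR and a line at 0 (3 libraries per group). Spata18 is at -0.21 after 3 days, 0.17 after 14 days and 0.36 after 21 days, and the intervals of most other members hold 0 at each duration.

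The stress groups were then compared with each other, which leaves the control libraries out. The contrast of the 21-day with the 3-day stress group was the widest for the family. Log2 fold changes were above 0 in 11 of 11 members (6 of 11 with scaling to the other spermatid markers), with a median of 0.21 against -0.012 over all features and 0.16 over the other spermatid markers. No member passed the adjusted threshold by edgeR on these libraries with TMM over all features, where 0.00472% of all features did. The edgeR fit of all 12 libraries called Spata18, where 19 of 21992 features and 2 of the 375 other spermatid markers were called higher. At an unadjusted p under 0.05, 7 members were higher (4 with scaling to the other spermatid markers), where 8.23% of all features were higher. Among the other spermatid markers 170 of 375 were higher at that level.

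Spata18 differed most between these groups, by a log2 fold change of 0.55 ± 0.087 (SE, adjusted p = 0.158, edgeR), followed by Spata32 at 0.43 ± 0.089 and Spata3 at 0.43 ± 0.089 (adjusted p = 0.163 each, edgeR). All 3 were called when libraries were scaled to the other spermatid markers, with Spata18 at 0.37 (adjusted p = 0.0264) and 0.368% of all features called higher. The lowest values were those of Spata9 at 0.065 and Spata25 at 0.018. DESeq2 called 6 members, Spata3, Spata6, Spata7, Spata18, Spata20 and Spata32. It called 3.71% of the features with an adjusted p higher, and 104 of the 375 other spermatid markers.

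Between the 14-day and the 3-day stress groups the median log2 fold change was 0.15 with 11 of 11 members above 0 (8 of 11 with scaling to the other spermatid markers, which put Spata4, Spata9 and Spata25 below 0). Spata18 was highest again at 0.38 ± 0.054 (SE, adjusted p = 0.160, edgeR). The median over the other spermatid markers was 0.14. No member was called by edgeR. At an unadjusted p under 0.05, 7 members were higher (3 with that scaling), where 7.73% of all features and 171 of the 375 other spermatid markers were. DESeq2 called 5 members, Spata3, Spata7, Spata18, Spata20 and Spata32. It called 3.24% of the features with an adjusted p higher, and 71 of the other spermatid markers. Between the 21-day and the 14-day stress groups the median was 0.071, with Spata32 at 0.19 and Spata18 at 0.18 as the highest values (adjusted p = 0.999 each, edgeR). No member had an unadjusted p under 0.05 there in edgeR, where 1.71% of all features were higher, and 0 members were called by DESeq2.

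The study's marker list gives each spermatid gene 1 or more labels of round spermatid steps (RS), taken from mouse single cells. The latest label was RS4 for Spata6, Spata7, Spata9, Spata19, Spata20 and Spata21, RS6 for Spata18 and Spata25, and RS8 for Spata3 and Spata32. The 6 members with RS4 as latest label had log2 changes over 21 days between 0.058 and 0.25 with a median of 0.19, and 0 of them were called. The 2 with RS8 had 0.41 and 0.38, and both were called. The pair with RS6 was split, with Spata18 at 0.46 and Spata25 at 0.092.

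The other spermatid markers showed a smaller difference between labels. The median log2 change over 21 days was 0.17 for the 178 markers with RS4 as latest label, 0.16 for the 135 with RS6 and 0.26 for the 62 with RS8. The shares called higher were 16.3%, 16.3% and 17.7%. This grouping was noticed with the values in view and is a description, with no test.

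**Figure D5:**
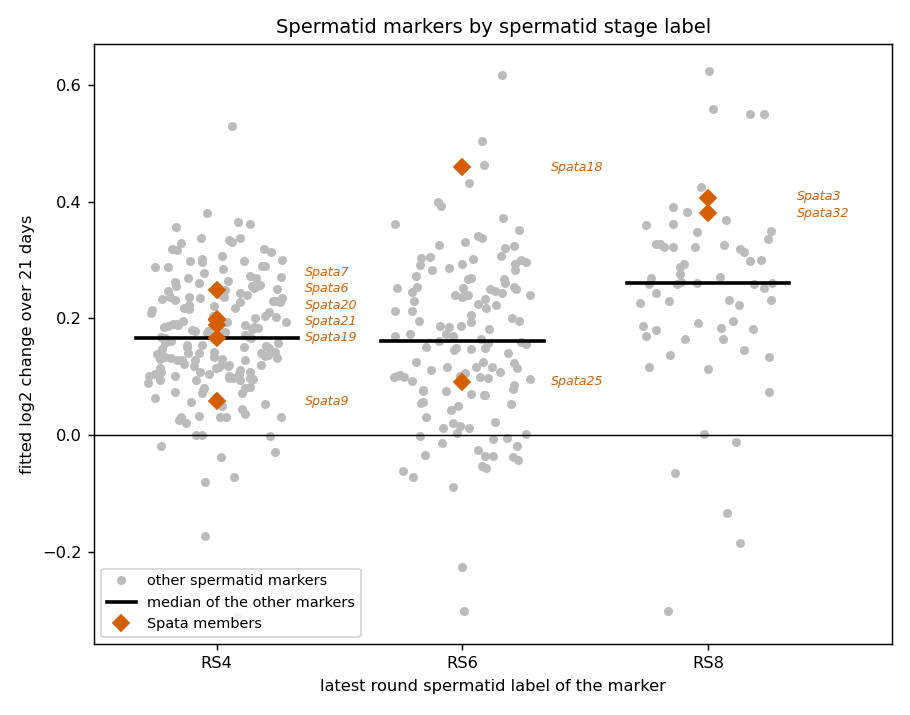
Fitted log2 change over 21 days of each spermatid marker by its latest round spermatid label (RS4, RS6, RS8), with the Spata members as diamonds, the other markers as grey points (spread sideways at random) and their median as a bar. Spata3 and Spata32 lie above the RS8 median of 0.26, and Spata18 lies above most RS6 markers, whose median is 0.16.

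The markers whose profile was nearest to Spata18, by the root mean square difference of centred log2 CPM over the 12 libraries, were Oaz3, Reep6 and Spatc1, at 0.064, 0.066 and 0.072, of 567 markers outside the family. Oaz3 encodes a testis antizyme, and SPATC1 is a protein of the sperm centriole region. Their log2 changes over 21 days were 0.36, 0.34 and 0.35, which follow from the choice by profile and carry no test here. Within the family Spata32 was as near, at 0.063, then Spata3 at 0.098, and Spata25 was farthest at 0.21.

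Gene lists around the structures of the members were described in the same fit over days. They were put together with earlier results of these data known. Of 8 markers of the head-tail junction and connecting piece, the structure of SPATA6, 8 had slopes above 0, with a median log2 change of 0.25 over 21 days. Of these 4 were called higher, against 5.42% of all features and 62 of 375 other spermatid markers: Oaz3, Spatc1, Odf1, an outer dense fibre gene, and Pmfbp1, needed to hold head and tail together. Spatc1 had the highest 21-day value against control, 0.30 ± 0.11 (SE, adjusted p = 0.297, edgeR), and Spatc1l the lowest, 0.017 ± 0.079 (adjusted p = 0.932).

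Of 15 markers of mitochondrial proteins, set beside Spata18 and Spata19, 9 had slopes above 0 and the median was 0.099. In this list 0 were called higher and 3 lower, chosen for naming after their values were seen: Slc25a31, a germ cell adenine nucleotide carrier listed under spermatogonia, and Cox7b2 and Tomm22, both listed under spermatocytes. Over all features 655 of 21992 were called lower, as were 10 of the 180 other spermatocyte markers and 1 of the 375 other spermatid markers. The highest 21-day value against control was that of Gpd2, mitochondrial glycerol-3-phosphate dehydrogenase, at 0.24 ± 0.12 (SE, adjusted p = 0.424, edgeR). The lowest was that of Tfam, the mitochondrial transcription factor, at -0.30 ± 0.19 (adjusted p = 0.482).

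Of 16 acrosome markers, set beside Spata32, 12 had slopes above 0, with a median of 0.094 and 0 called by edgeR, 4 being higher at an unadjusted p under 0.05, against 14.4% of all features and 53.3% of the other spermatid markers. The 21-day values against control ran from -0.055 for Spam1, the sperm hyaluronidase, to 0.18 for Spaca7. Spata32, at 0.32 in that comparison, lay above this range. Of 9 markers of the cilium base and transition zone, set beside Spata7, 4 had slopes above 0, and the median was -0.039. In this list 1 was called higher, against 5.42% of all features and 62 of 375 other spermatid markers. That gene, Fam161a, also linked to photoreceptor disease, had a log2 change of 0.33 over 21 days (adjusted p = 0.0420, edgeR) and the highest 21-day value of its list, 0.24. Lztfl1 had the lowest, -0.11.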

How the data were processed

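RNA of whole testis was depleted of ribosomal RNA, made into directional libraries and sequenced. The submitters' processing notes and the methods name Trimmomatic, HISAT2, HTSeq and the build Rnor_6.0, without versions. Each library has its own deposited table of 31715 Ensembl transcripts, giving an estimated count, an effective length and a TPM value, which the authors had put on a common library total. Read counting alone does not give this layout. The quantifier is not given in the sources used here. Replicates were not pooled.

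The deposited tables hold transcript identifiers only. Markers were found by matching the counts of the study's marker table to the deposited counts, alone or summed over neighbouring transcripts, within 1 count. Of the 578 matched markers 119 had more than 1 candidate run, settled by TPM. Each Spata gene matched 1 transcript, and its TPM followed from its count and effective length.

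Estimated counts were rounded and fitted with edgeR 4.0.16 (R 4.3.3) using TMM, filterByExpr, glmQLFit and glmQLFTest, on the libraries of the groups compared or, for the slope over days, on all 12, as in the study's layout of groups and without a block. The study's DESeq2 (version 1.42.0 here) was an alternative. The standard error is the log2 fold change over the square root of F, and log2 CPM uses a prior count of 2. Level means have SDs over 3 libraries. The pipeline was tested on simulated data. Libraries of a group differed beyond sampling error (chi-square over its degrees of freedom from 9.23 to 33.4), so none was taken as a copy. Tables and figures were made with Python 3.11.15, pandas 2.3.3, NumPy 2.4.6, SciPy 1.17.1 and matplotlib 3.10.9.

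The members and gene lists were chosen with earlier results of these data known. The text names every Spata marker, the highest and lowest 21-day value of each companion list, and the 3 markers nearest in profile to the member with the largest 21-day change. Alternatives were other scalings (RLE, total count), no filter or at least 10 counts in every library, a replicate block, DESeq2, a joint fit, each library left out and each transcript as its own feature. Ratios of group means to control were also taken by CPM in place of TPM. Scaling to the other spermatid markers and leaving out control replicate 1 with 21-day replicate 2 were chosen after seeing the data. Columns of the authors' own comparisons were not used.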

Additional observations from a re-analysis of the deposited data

Results flagged for a closer look

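Spata18 had a log2 fold change against control of -0.21 after 3 days, 0.17 after 14 days and 0.36 after 21 days. None passed adjustment in edgeR fits of the libraries compared (adjusted p = 0.985, 0.399 and 0.224). After 21 days Spata18 was called by DESeq2 and in the edgeR fit of all 12 libraries. The values are listed because all 3-day libraries lay below every control library and all 14-day and 21-day libraries above. The p-values between durations were read after that choice and do not allow for it. Its effect after 14 days exceeded that after 3 days by a log2 value of 0.38 ± 0.054 (SE, edgeR, unadjusted p = 0.000161, adjusted p = 0.160), and its effect after 21 days exceeded that after 3 days by 0.55 ± 0.087 (unadjusted p = 0.000364, adjusted p = 0.158). The control libraries drop out of both differences. All 3 of the 3-day libraries were below control, and all 3 libraries of the 14-day and of the 21-day stress group were above it, as held for 4.29%, 11% and 12.5% of all features. Neither difference passed adjustment over all features in the edgeR fits of the libraries compared with TMM over all features. For 21-day vs 3-day, Spata18 was called in the edgeR fit of all 12 libraries and with scaling to the other spermatid markers. In these fits 19 of 21992 and 78 of 21203 features were called higher. DESeq2 called Spata18 for both differences.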

How the results depend on the processing

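The slope over days called Spata3, Spata18 and Spata32 under RLE, total-count scaling, no filter, the filter of 10 counts, DESeq2 and scaling to the other spermatid markers. Each library left out in turn gave 1 to 4 called members and a family median of 0.13 to 0.23. With each library left out, the comparisons of 2 groups and of 14-day and 21-day with control called 0 members, with family medians of -0.17 to -0.011 after 3 days, 0.016 to 0.16 after 14 days, 0.052 to 0.20 after 21 days, 0.042 to 0.19 for 14-day and 21-day together, 0.13 to 0.21 for 14-day vs 3-day, 0.15 to 0.28 for 21-day vs 3-day and 0.0070 to 0.12 for 21-day vs 14-day. With each transcript as its own feature, 0 members were called after 21 days by edgeR and 3 had an unadjusted p under 0.05.

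The replicate numbers were not taken to pair the samples. The correlation of deviations between same-numbered libraries of 2 groups averaged -0.032 to 0.12, with single values from -0.12 to 0.22. No pair of groups had every value over 0.1. Differently numbered libraries were not compared, so these values cannot exclude a pairing. With the replicate block the slope called 3 members and every other comparison 0, and the sign of Spata9 after 14 days turned to 0.0068. After 21 days 7 members had an unadjusted p under 0.05 with the block, against 3 without it. With the block 3612 of 21106 features were under that level in either direction. Without it 1786 were higher and 1205 lower. For 14-day and 21-day together, the 375 features called became 21 with the block, 248 without a filter, 671 with at least 10 counts, 709 in the joint fit, 1653 by DESeq2 and 0 with scaling to the other spermatid markers.

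DESeq2 called 1 member after 21 days, 1 for 14-day and 21-day together, 5 for 14-day vs 3-day and 6 for 21-day vs 3-day. A joint fit called 1 after 21 days and 1 for 21-day vs 3-day, where 498 and 19 of 21992 features were called higher. Spata9 after 14 days turned to 0.0014 under total-count scaling and in the joint fit (0.0014). The cause was not tested.

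Scaling to the other spermatid markers put the median of all features at -0.11 after 14 days, -0.15 after 21 days, -0.13 for both together, -0.14 for 14-day vs 3-day and -0.18 for 21-day vs 3-day and the slope, and signs are relative to that shift. On this scale after 3 days Spata4 and Spata21 turned to 0.015 and 0.00085. After 14 days Spata4, Spata6 and Spata20 turned to -0.081, -0.015 and -0.033. After 21 days the family median was -0.00056 and Spata4, Spata9, Spata19, Spata20, Spata21 and Spata25 turned to -0.059, -0.11, -0.031, -0.0077, -0.00056 and -0.073. For 14-day and 21-day together the family median was -0.0031 and Spata4, Spata6, Spata9, Spata19, Spata20 and Spata25 turned to -0.067, -0.0031, -0.10, -0.013, -0.018 and -0.025. For 21-day vs 3-day the family median was 0.031 and 3 members were called and Spata4, Spata9, Spata19, Spata21 and Spata25 turned to -0.080, -0.11, -0.025, -0.0074 and -0.16. For 14-day vs 3-day the family median was 0.017. For the slope the family median was 0.012 and Spata4, Spata9, Spata19 and Spata25 turned to -0.085, -0.12, -0.022 and -0.10.

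Without control replicate 1 and 21-day replicate 2, after 21 days the family median was -0.0088 and Spata4, Spata6, Spata9, Spata19, Spata20 and Spata25 turned to -0.029, -0.0088, -0.10, -0.044, -0.0099 and -0.10. For 14-day and 21-day together Spata4, Spata6, Spata9, Spata19, Spata20 and Spata25 turned to -0.049, -0.011, -0.10, -0.0017, -0.018 and -0.032. For the slope the family median was 0.079 and 1 member was called and Spata4, Spata9 and Spata25 turned to -0.0061, -0.049 and -0.053.

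With each library left out, these members changed sign: after 3 days Spata21 ranged from -0.14 to 0.0045, Spata25 ranged from -0.060 to 0.14, Spata4 ranged from -0.10 to 0.029 and Spata9 ranged from -0.16 to 0.093. After 14 days Spata20 ranged from -0.018 to 0.12, Spata4 ranged from -0.056 to 0.076, Spata6 ranged from -0.0065 to 0.15 and Spata9 ranged from -0.10 to 0.15. After 21 days Spata25 ranged from -0.026 to 0.17 and Spata9 ranged from -0.076 to 0.16. For 14-day and 21-day together Spata4 ranged from -0.018 to 0.12 and Spata9 ranged from -0.083 to 0.17. For 21-day vs 3-day Spata25 ranged from -0.048 to 0.12. For the slope Spata9 ranged from -0.0028 to 0.12. None of these was called. The cause was not tested.

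The lowest member count was 954, and 3 libraries a group limit the precision.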
